A study of Mus musculus with 24 samples.

Results

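The VEGF and angiopoietin system of the mouse heart was followed over 1 day through 10 genes: the ligands Vegfa, Vegfb and Angpt1, the VEGF receptors Kdr, Flt1 and Flt4, the co-receptors Nrp1 and Nrp2, and the TIE receptors Tek and Tie1. They were chosen by name, with earlier results of these data known. A gene's value was the mean over the probe sets that name it alone in the platform annotation. All 10 were measured, by 11 of 34351 probe sets, and they are 10 of 22180 genes measured. Angpt1 had 2 probe sets and each of the other 9 genes had 1.

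Hearts came from male wild-type C57Bl/6 mice aged 8 weeks under 12 h of light and 12 h of dark, with no treatment or transgene named in the labels. Myocardium was sampled every 4 h, at 6 points named by zeitgeber time (ZT), which counts hours from lights-on. ZT03, ZT07 and ZT11 fall in the light phase, and ZT15, ZT19 and ZT23 fall in the dark phase. Each time had 4 arrays that the labels call biological replicates, 24 in all. A value is a log2 difference from the gene's own median over the 24 arrays. It keeps no expression level, so the members cannot be ranked by level, and the presence of heart muscle or endothelial markers could not be checked. In bulk tissue fewer cells of a type and less RNA per cell cannot be told apart.

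VEGF-A is the main growth factor of blood vessel endothelium, and its signal runs mostly through the receptor tyrosine kinase VEGFR2, which Kdr encodes. Flt1 encodes VEGFR1, which binds VEGF-A tightly, signals weakly and in its soluble form acts as a decoy that holds VEGF-A away from VEGFR2. Angiopoietin-1, made mostly by cells around the vessel, activates the endothelial receptor TIE2, the product of Tek, and keeps vessels quiescent and tight. In the heart, cardiac muscle cells are a main source of VEGF-A, and the receptors are carried mostly by the dense capillary endothelium.

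Of the 10 members, 5 followed a 24-h pattern in limma's test of a cosine and a sine term, at a Benjamini-Hochberg adjusted p below 0.05 over all genes, against 7.61% of all 22180 genes. Kdr, Angpt1, Vegfa and Nrp1 were highest between the end of the night and the early light phase. Flt1 was highest just after lights-off, close to opposite in phase to Kdr. Vegfb, Flt4, Nrp2, Tek and Tie1 did not pass. The changes were modest, from 1.23-fold to 1.59-fold between fitted peak and trough among the 5. The median fitted amplitude (peak minus mean) was 0.14 over the 10 members and 0.04 over all genes, on the log2 scale. The members were chosen with earlier results known, and dim genes could not be filtered from all genes. These comparisons with all genes are therefore descriptions.

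Promoter windows from RefSeq (GRCm38.p6), 250 bases before to 50 after a transcription start, were found for 9 of the 10 members, all but Angpt1. The windows of 4 of the members that followed a 24-h pattern are shown because their RNAs rose and fell at different hours. Each is written 5′ to 3′ on the gene's own strand, and capitals mark GGAA on either strand, the core bound by ETS factors, which are known regulators of endothelial genes.
Kdr, chr5:75978406-75978705, minus strand: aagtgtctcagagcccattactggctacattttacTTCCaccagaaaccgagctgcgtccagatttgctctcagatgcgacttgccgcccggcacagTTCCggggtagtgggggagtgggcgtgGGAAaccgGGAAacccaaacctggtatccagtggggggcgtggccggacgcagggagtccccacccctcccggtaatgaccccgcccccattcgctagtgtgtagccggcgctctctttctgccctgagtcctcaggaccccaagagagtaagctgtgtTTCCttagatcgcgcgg
Flt1, chr5:147725962-147726261, minus strand: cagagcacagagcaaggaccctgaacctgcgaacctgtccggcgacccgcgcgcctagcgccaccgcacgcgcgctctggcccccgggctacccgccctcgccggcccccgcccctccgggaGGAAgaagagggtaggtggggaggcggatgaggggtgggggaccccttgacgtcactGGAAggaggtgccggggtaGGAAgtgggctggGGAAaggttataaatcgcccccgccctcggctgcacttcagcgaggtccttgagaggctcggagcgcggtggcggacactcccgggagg
Nrp1, chr8:128358823-128359122, plus strand: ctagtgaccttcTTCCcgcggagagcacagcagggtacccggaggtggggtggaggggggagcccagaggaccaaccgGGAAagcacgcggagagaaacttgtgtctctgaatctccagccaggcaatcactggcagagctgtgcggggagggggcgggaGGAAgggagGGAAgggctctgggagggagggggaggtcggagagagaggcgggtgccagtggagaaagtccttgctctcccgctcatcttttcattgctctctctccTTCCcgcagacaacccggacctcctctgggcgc
Vegfa, chr17:46032328-46032627, minus strand: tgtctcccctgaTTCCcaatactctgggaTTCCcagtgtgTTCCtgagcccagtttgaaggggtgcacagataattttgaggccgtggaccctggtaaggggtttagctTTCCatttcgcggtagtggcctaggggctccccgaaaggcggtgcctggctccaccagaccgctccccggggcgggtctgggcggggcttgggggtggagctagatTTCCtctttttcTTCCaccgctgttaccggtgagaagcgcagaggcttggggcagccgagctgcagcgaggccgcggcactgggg
The core GGAA was found 5 times in the Kdr window, 4 times in that of Flt1, 5 times in that of Nrp1 and 6 times in the Vegfa window shown. It is present in 96.0% of 32544 distinct windows of that length, with a median of 3. In the windows of members that were not called, GGAA was found 9 times in Tie1, 2 times each in Tek, Flt4 and Vegfb and 1 time in Nrp2. The other Vegfa window, located below, held 3. Clock-related letters were searched on both strands as well. The E-box CACGTG (7.17% of all windows) and the D-box TTATGNAA (3.39%) were in none of the 4 windows shown, nor was the longer ETS site ACAGGAA (8.68%), which holds GGAA. The nuclear receptor core AGGTCA (16.3% of all windows) was found 1 time in the Nrp1 window and in none of the other 3 shown. Among members that were not called, AGGTCA was found 2 times in Vegfb and ACAGGAA 1 time in Tie1. The hypoxia response core ACGTG, which lies inside CACGTG and is present in 19.7% of all windows, was in none of the 4 shown. It was found 1 time in a second Vegfa window at chr17:46025114-46025413. That second window lies wholly inside the Vegfa gene, which spans 46016993 to 46032377, so this match is not upstream of the gene. A match is only a match of letters.

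**Figure D1:**
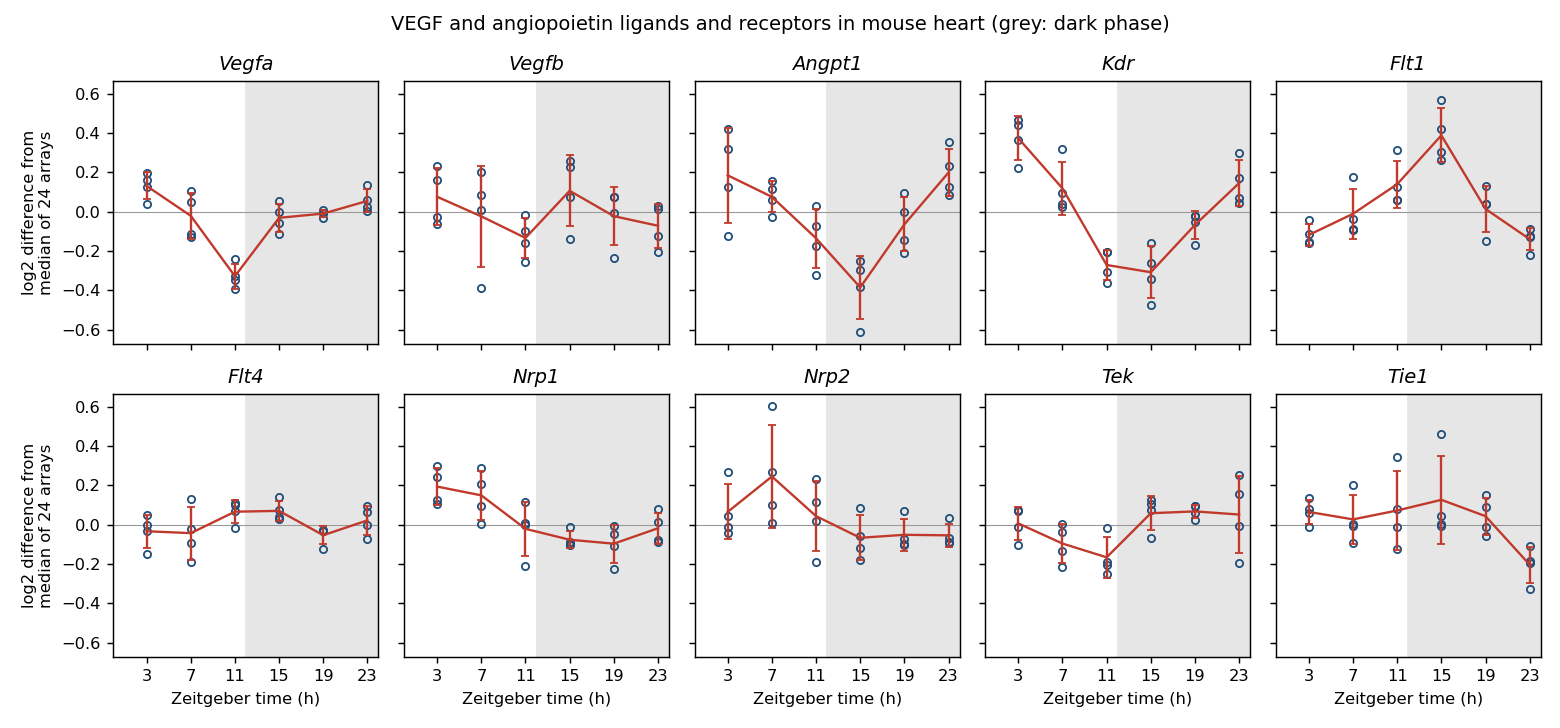
Values of the 10 genes on each of the 24 arrays against zeitgeber time in hours, on the log2 scale with the gene's median set to 0 (circles), with the mean and SD of the 4 arrays of each time (red line and bars). Kdr falls from a mean of 0.37 at ZT03 to -0.31 at ZT15, Flt1 reaches its highest mean of 0.39 at ZT15, and Vegfa is low at ZT11 alone.

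Among the ligands, Vegfa had one low time. Its 4 arrays at ZT11 read -0.33, -0.39, -0.24 and -0.35, on the log2 scale. Those at ZT03 read 0.04, 0.16, 0.13 and 0.20, and those at ZT07 read 0.05, -0.11, -0.13 and 0.10. At ZT15 the Vegfa arrays read 0.05, -0.00, -0.11 and -0.06, at ZT19 -0.03, -0.01, 0.01 and -0.01, and at ZT23 0.02, 0.00, 0.14 and 0.06. All 4 ZT11 arrays lay below the other 20, while the other times overlapped their neighbours in the order ZT03, ZT23, ZT19, ZT07, ZT15. A time whose 4 arrays lie outside the other 20 was found in 0.78% of all genes, and Vegfa was the only member with one. The ZT11 mean was -0.33 ± 0.06 (SD, n = 4), and the highest time, ZT03, had 0.13 ± 0.07, a 1.37-fold range. Any difference among the 6 times passed limma's F test (adjusted p = 9.02e-05), as it did for 5 of the 10 members and 4.72% of all genes, and the 24-h fit gave an amplitude of 0.16 ± 0.03 (SE, 24 arrays) with a peak at ZT 0.0355 ± 0.737 h (adjusted p = 0.00425).

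The low time of Vegfa was entered and left within 4 h on either side. From ZT07 to ZT11 Vegfa fell by 0.31 ± 0.05 (SE, log2; adjusted p = 0.00514 in limma), a step that 0.311% of all genes passed in either direction. From ZT11 to ZT15 it rose by 0.30 ± 0.05 (adjusted p = 0.0126), a step that 0.203% of genes passed. These steps share the ZT11 arrays. The rise missed the threshold without ZT11 replicate 2 (adjusted p = 0.0565) and after the mean of the pan-endothelial markers was subtracted from each array (0.22, adjusted p = 0.151). The marker mean was 0.01 at ZT11 and 0.08 at ZT15, so its subtraction lowers this step of every gene by the same amount.

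Angpt1, the ligand of TIE2, was lowest at ZT15 and highest from ZT23 to ZT03. At ZT15 its arrays read -0.61, -0.25, -0.38 and -0.30, and at ZT11 0.03, -0.32, -0.07 and -0.17. At ZT23 they read 0.23, 0.35, 0.13 and 0.08, at ZT03 0.42, 0.12, -0.12 and 0.32, at ZT07 0.16, 0.11, 0.06 and -0.03, and at ZT19 -0.14, -0.21, 0.00 and 0.10. All 4 arrays at ZT15 lay below all 4 at ZT23, ZT03, ZT07 and ZT19, but not below those at ZT11, and the ZT03 arrays were widely spread. The amplitude was 0.27 ± 0.04 (SE, 24 arrays), a 1.46-fold change with a peak at ZT 2.21 ± 0.600 h (limma adjusted p = 0.000457). Both probe sets passed when each was tested on its own, with peaks at ZT 1.86 and ZT 2.56 (adjusted p = 0.0108 and 0.00234 over 34351 probe sets). In the F test over the 6 times Angpt1 passed as the mean of both (adjusted p = 0.00500), but not as the more variable probe set alone (adjusted p = 0.0898).

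Vegfb, a ligand of VEGFR1 linked to fatty acid handling in muscle, did not pass any of the tests run. Its time means lay between -0.13 at ZT11 and 0.11 at ZT15, every time overlapped its neighbour in the order of the means, and ZT07 alone spanned from -0.39 to 0.20. The fitted amplitude was 0.02 ± 0.05 (SE; adjusted p = 0.975).

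Kdr, the gene of VEGFR2, changed most among the members, and it was low across lights-off. At ZT11 its arrays read -0.31, -0.36, -0.21 and -0.21, and at ZT15 -0.34, -0.26, -0.47 and -0.16. At ZT19 they read -0.05, -0.02, -0.02 and -0.17, and at ZT23 0.07, 0.17, 0.30 and 0.04. At ZT03 they read 0.37, 0.44, 0.47 and 0.22, and at ZT07 0.09, 0.02, 0.04 and 0.32. The order of the means was ZT03, ZT23, ZT07, ZT19, ZT11, ZT15. The 4 arrays of ZT07 lay above those of ZT19, and those of ZT19 above those of ZT11, while the other neighbours in that order overlapped. The mean fell from 0.37 ± 0.11 (SD, n = 4) at ZT03 to -0.31 ± 0.13 at ZT15, a 1.60-fold range. The 24-h amplitude was 0.33 ± 0.03 (SE), with a peak at ZT 2.23 ± 0.359 h (limma adjusted p = 5.20e-07), and its p ranked 33 among 22180 genes.

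The steepest step of Kdr was late in the light phase. From ZT07 to ZT11 it fell by 0.39 ± 0.07 (SE; limma adjusted p = 0.0188), a 1.31-fold drop. The step missed the threshold without ZT07 replicate 4, ZT11 replicate 1 or ZT11 replicate 2, with adjusted p up to 0.0826. The other 5 steps of Kdr did not pass, and the return from ZT15 to ZT03 came as 3 rises of 0.24, 0.21 and 0.23 between neighbouring times.

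Flt1, the gene of VEGFR1 and its soluble decoy, moved the other way. At ZT15 its arrays read 0.57, 0.42, 0.30 and 0.26, and at ZT11 0.06, 0.13, 0.06 and 0.31. At ZT23 they read -0.13, -0.09, -0.22 and -0.12, and at ZT03 -0.15, -0.16, -0.04 and -0.11. At ZT07 they read -0.04, -0.09, -0.09 and 0.18, and at ZT19 0.04, -0.15, 0.04 and 0.13. The ZT15 arrays lay above all those of ZT19, ZT07, ZT03 and ZT23 and overlapped those of ZT11. The mean was 0.39 ± 0.14 (SD, n = 4) at ZT15 and -0.14 ± 0.06 at ZT23, a 1.44-fold range. The amplitude was 0.23 ± 0.03 (SE), a 1.38-fold change, with a peak at ZT 13.8 ± 0.575 h (limma adjusted p = 0.000292). From ZT15 to ZT19 Flt1 fell by 0.37 ± 0.07 (adjusted p = 0.0279, where 0.203% of genes passed). That step missed the threshold without any of 5 arrays, namely ZT15 replicates 1 and 2 and ZT19 replicates 1, 2 and 3, with adjusted p up to 0.146. The array does not separate the membrane from the soluble form of Flt1 in these values, which are 1 probe set for the gene.

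The 2 receptors of VEGF-A were therefore described against each other on each array. Kdr minus Flt1 was 0.49 ± 0.11 (SD, n = 4) at ZT03, 0.13 ± 0.01 at ZT07 and -0.41 ± 0.12 at ZT11. It was lowest at ZT15, at -0.70 ± 0.21, and then -0.08 ± 0.18 at ZT19 and 0.29 ± 0.16 at ZT23. All 8 arrays of ZT11 and ZT15 lay below 0 and all 8 of ZT23 and ZT03 above 0. Each gene is centred on its own median, so 0 does not mark equal RNA of the 2 genes. The fitted peaks of Kdr and Flt1 were 11.5 ± 0.759 h (SE) apart, and those of Kdr and Angpt1 0.0206 ± 0.811 h. Earlier results for these receptors were known when the pair was set side by side, so the gap is a description with no test.

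Flt4, the gene of VEGFR3 and known for its role in lymphatic vessels, had the smallest range of the members, from a mean of -0.05 at ZT19 to 0.07 at ZT15. It did not pass the 24-h test (amplitude 0.04 ± 0.02, SE; limma adjusted p = 0.574). With the mean of the pan-endothelial markers subtracted from every gene, its amplitude was 0.011 (adjusted p = 0.965) and its fitted peak moved from ZT 13.6 to ZT 17.4. In the values as deposited, every time overlapped its neighbour in order. The mean over 5 lymphatic markers lay between -0.15 at ZT07 and 0.07 at ZT15. These markers did not share 1 course, so the mean does not describe each of them. Prox1 peaked at ZT 0.686, Lyve1 at ZT 16.8 and Mmrn1 at ZT 18.6, and Pdpn and Reln were not called in the 24-h test.

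**Figure D2:**
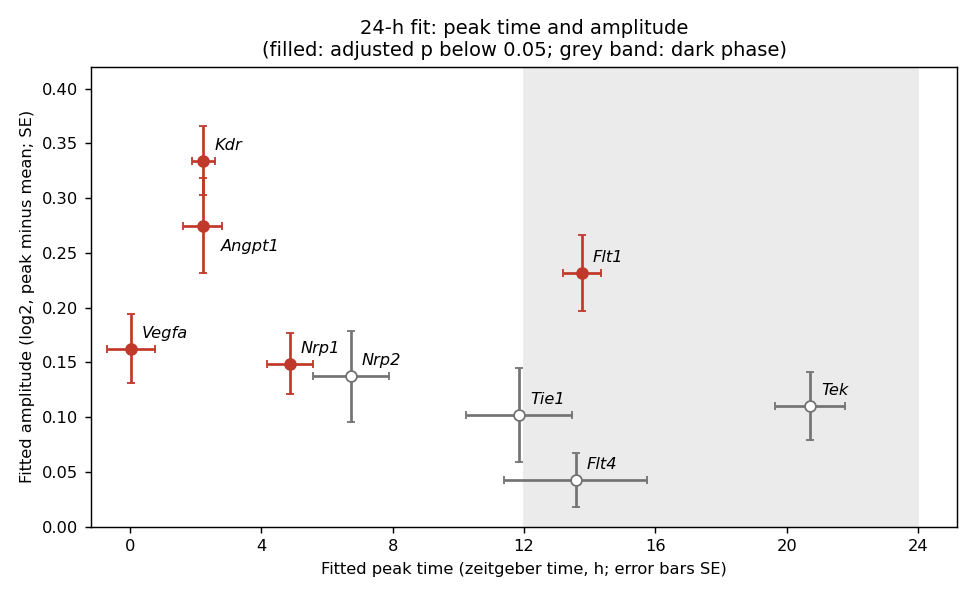
Fitted peak time in hours (x axis, with SE) against fitted amplitude on the log2 scale (y axis, with SE) for 9 of the 10 genes, filled where limma's adjusted p was below 0.05. Kdr and Angpt1 lie together near ZT 2.2, Flt1 at ZT 13.8, and Vegfb is left out because its peak time had an SE of 10.1 h.

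Of the co-receptors, Nrp1 followed a 24-h pattern with a day peak. Neuropilin-1 binds VEGF-A and strengthens its signal through VEGFR2, and it is also a receptor of class 3 semaphorins. At ZT03 the Nrp1 arrays read 0.24, 0.30, 0.13 and 0.11, and at ZT07 0.21, 0.00, 0.10 and 0.29. At ZT11 they read -0.21, 0.12, -0.00 and 0.01, and at ZT15 -0.01, -0.10, -0.09 and -0.10. At ZT19 they read -0.23, -0.11, -0.00 and -0.05, and at ZT23 0.08, 0.02, -0.07 and -0.09. The 4 ZT03 arrays lay above all 12 dark-phase arrays, and among the dark-phase times ZT07 overlapped ZT23 only. The amplitude was 0.15 ± 0.03 (SE), a 1.23-fold change with a peak at ZT 4.87 ± 0.715 h (limma adjusted p = 0.00313). The F test over the 6 times passed (limma adjusted p = 0.0305). It missed the threshold without any of 5 arrays, namely ZT03 replicates 1 and 2, ZT07 replicate 1, ZT15 replicate 2 and ZT19 replicate 2, with adjusted p up to 0.0797.

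Nrp2, a co-receptor of VEGFR3 and known from lymphatic and venous endothelium, had its highest mean at ZT07 (0.25 ± 0.26, SD, n = 4) and its lowest at ZT15 (-0.07 ± 0.11). ZT07 replicate 4 read 0.60, the highest value of Nrp2, and without it the ZT07 mean was 0.13 ± 0.13 (n = 3), still the highest of the 6. The 24-h test gave an amplitude of 0.14 ± 0.04 (SE; limma adjusted p = 0.101) and passed without ZT11 replicate 1 alone (adjusted p = 0.0427). The amplitude was 0.096 without ZT07 replicate 4 and 0.090 without the 3 arrays of lowest weight, of which that array is 1.

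The TIE receptors did not pass. Tek, the receptor of angiopoietin-1, had means between -0.17 ± 0.10 (SD, n = 4) at ZT11 and 0.07 ± 0.03 at ZT19, and the ZT23 arrays were spread from -0.19 to 0.25. Its amplitude was 0.11 ± 0.03 (SE) with a peak at ZT 20.7 (limma adjusted p = 0.0700). The test passed without ZT23 replicate 4 (adjusted p = 0.00856), with array weights (0.0196), without the 3 arrays of lowest weight (0.00503) and after quantile normalization (0.0297). ZT23 replicate 4 is 1 of those 3 arrays (weight 0.573), so the settings that drop it or weigh it down are not separate. The test also passed after subtraction of the endothelial marker mean (0.0192). That subtraction takes the same values from every gene, so this pass is no separate finding about Tek. Tie1, the gene of a receptor that modulates TIE2, was lowest at ZT23. Its 4 arrays there (-0.33 to -0.11) lay below those of ZT07, ZT19, ZT03 and ZT15 but overlapped those of ZT11. The amplitude of Tie1 was 0.10 ± 0.04 (SE; limma adjusted p = 0.337), and its highest value, 0.46, was on ZT15 replicate 1.

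Dusk was set against dawn by the mean of ZT11 and ZT15 minus that of ZT23 and ZT03, 8 arrays against 8. Kdr was 1.46-fold lower at dusk (log2 -0.55 ± 0.05, SE; limma adjusted p = 5.72e-07), Angpt1 1.37-fold lower (-0.45 ± 0.07; adjusted p = 0.000424) and Vegfa 1.21-fold lower (-0.27 ± 0.04; adjusted p = 4.61e-05). Flt1 was 1.31-fold higher (0.39 ± 0.05; adjusted p = 3.98e-05). These 4 of 10 members passed, against 3.76% of all genes. The dusk and dawn arrays of Kdr did not overlap (-0.47 to -0.16 against 0.04 to 0.47), nor did those of Flt1 (0.06 to 0.57 against -0.22 to -0.04), as was found in 0.83% of all genes. Those of Angpt1 and Vegfa overlapped. Of the other 6 members, Nrp1 (-0.14 ± 0.05; adjusted p = 0.151) and Tie1 (0.17 ± 0.07; adjusted p = 0.238) had the smallest p.

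Night against day set the 12 arrays of ZT15, ZT19 and ZT23 against the 12 of ZT03, ZT07 and ZT11. Nrp1 passed, 1.13-fold lower at night (log2 -0.17 ± 0.04, SE; limma adjusted p = 0.0131), with a median of -0.08 over the night arrays and 0.11 over the day arrays. It was the only one of 10 members, against 4.39% of all genes. Kdr (-0.15 ± 0.04; adjusted p = 0.0502), Tek (0.14 ± 0.04; adjusted p = 0.0632) and Nrp2 (-0.18 ± 0.06; adjusted p = 0.102) lay above the threshold. Kdr passed without any of 6 arrays (ZT03 replicate 4, ZT07 replicates 2 and 3, ZT11 replicate 2, ZT15 replicate 4 and ZT23 replicate 3, lowest adjusted p = 0.0266). Tek passed without any of 3 (ZT11 replicate 4, ZT15 replicate 4 and ZT23 replicate 4, lowest adjusted p = 0.0102), and Nrp2 without ZT11 replicate 1 (adjusted p = 0.0450).

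**Figure D3:**
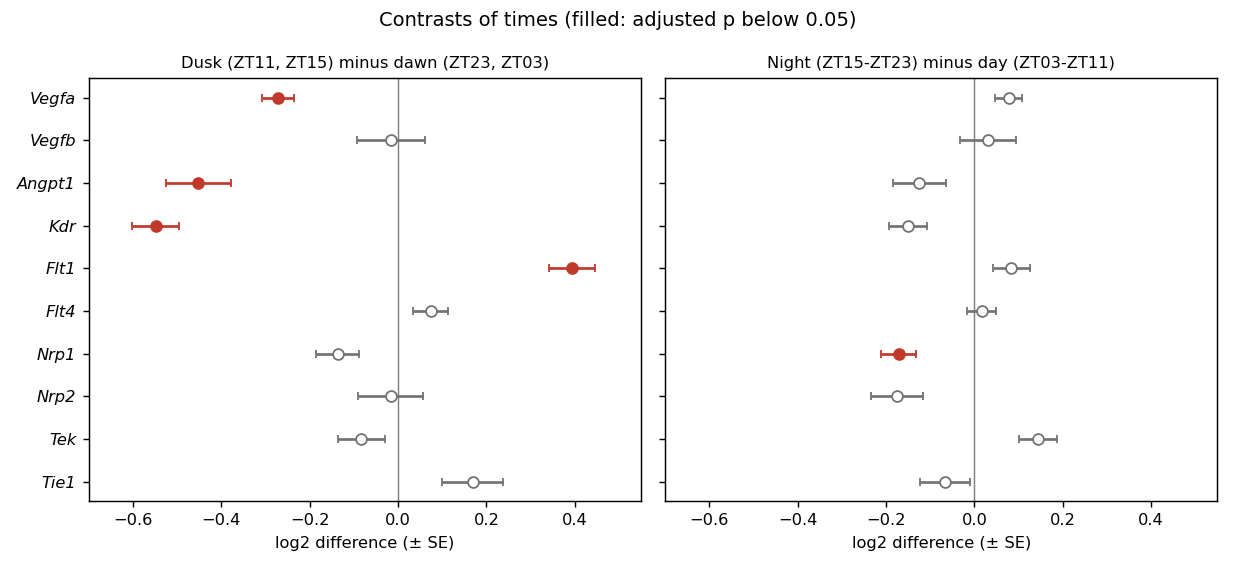
Log2 differences with SE for dusk minus dawn (left) and night minus day (right) for the 10 genes, filled where limma's adjusted p was below 0.05. Kdr, Angpt1 and Vegfa lie below 0 and Flt1 above 0 at dusk, while Nrp1 alone passes at night.

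The other ligands and decoys of these receptors and co-receptors, listed by name, held 12 measured genes. Of these, 0 had a 24-h pattern in limma's test, against 7.61% of all genes. In a list of 12 genes, 0 lies near that share. Of these 12 genes Sema3f, a semaphorin that binds neuropilin-2, had the smallest p (1.20-fold, unadjusted p = 0.00874, adjusted p = 0.0871), and Svep1 and Sema3d were also below 0.05 unadjusted (0.0399 and 0.0200). Angpt2, the context-dependent antagonist of angiopoietin-1, had an amplitude of 0.03 ± 0.03 (SE; adjusted p = 0.801), and Pgf, a further ligand of VEGFR1, 0.09 ± 0.04 (adjusted p = 0.341).

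Of 36 measured receptor partners and signalling genes, 9 had a 24-h pattern, 6 with a peak in the light and 3 in the dark. Rcan1, an inhibitor of calcineurin that VEGF is known to induce, changed 2.56-fold with a peak at ZT 0.559. Pik3r1, a regulatory subunit of phosphatidylinositol 3-kinase, changed 1.63-fold with a peak at ZT 14.6. The protein kinase C gene Prkca (1.32-fold, ZT 4.49), the semaphorin receptor gene Plxnd1 (1.32-fold, ZT 4.87) and the SRC family kinase gene Yes1 (1.22-fold, ZT 4.93) peaked at nearly the same hour as Nrp1. Grb10, an adaptor, peaked at ZT 20.4 (1.21-fold). The median amplitude was 0.08 over this list, 0.09 over the transcription factors described next and 0.11 over the endothelial response genes, beside 0.04 over all genes, of which 7.61% were called.

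Of 26 measured transcription factor genes known from endothelium, 7 had a 24-h pattern, 3 with light-phase and 4 with dark-phase peaks. Over all genes 7.61% were called, 3.83% with a light-phase and 3.78% with a dark-phase peak. The 2 hypoxia-inducible factor genes peaked at opposite sides of the day, Hif1a at ZT 2.73 (1.33-fold, adjusted p = 2.64e-06) and Epas1 at ZT 13.8 (1.17-fold, adjusted p = 0.00153). Prox1, a factor of lymphatic endothelium that is also active in heart muscle, peaked at ZT 0.686 (1.80-fold). Gata2 (1.29-fold, ZT 11.8), the flow-responsive factor Klf2 (1.33-fold, ZT 13.1) and the arterial factor Sox17 (1.24-fold, ZT 13.7) peaked around lights-off.

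Of 22 measured genes of the angiogenic endothelial response, 6 had a 24-h pattern, against 7.61% of all genes. Of these 6, 2 had a light-phase and 4 a dark-phase peak. Aplnr, the apelin receptor gene, peaked at ZT 1.38 (1.38-fold), close to Kdr. Adamts1, a secreted protease gene (1.51-fold, ZT 11.02), the sphingosine-1-phosphate receptor gene S1pr1 (1.37-fold, ZT 13.6), Robo4 (1.16-fold, ZT 13.8) and Eng, a co-receptor of the TGF-beta family (1.23-fold, ZT 16.1), peaked nearer to Flt1. Hey1, a NOTCH target, peaked at ZT 18.5 (1.28-fold). The NOTCH ligand gene Dll4 and the tip cell gene Esm1 were not called.

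The genes most like each of the 5 members were ranked by Pearson r over the 24 arrays, among genes with a full name. Closest to Kdr were Slc41a3 (r = 0.885), Arhgap18 (0.878), Akap1 (0.875), Rrad (0.875) and Hif1a (0.867). Closest to Flt1 were Lonrf1 (r = 0.864), Inka2 (0.864), Tnxb (0.858), Sorbs3 (0.854) and Ahnak (0.854). Vegfa was closest to Rflnb (r = 0.856), Pfkfb2 (0.793), Cerk (0.775), the endothelial receptor gene Cd93 (0.767) and Auts2 (0.763). Nrp1 was closest to Hace1 (r = 0.850), Rnf216, Dhx36, Mir99ahg and Dock4, and Angpt1 to Alpk2 (r = 0.853), Tbc1d4, Pde3a, Sec23a and Grb14. The arrays share time of day, so these values describe likeness of pattern and carry no test.

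In limma's dusk contrast 3 of 12 pan-endothelial markers (Ramp2, Eng and Robo4) and 5 of 10 capillary markers passed as higher at dusk, the side of Flt1, against 2.06% of all genes. None of either list passed as lower, the side of Kdr, Angpt1 and Vegfa, against 1.7% of all genes. In lists of 12 and 10 genes, 0 lies near that share. The values of 3 pan-endothelial and 2 capillary markers were below 0, among them Cldn5, a tight junction gene (-0.29, adjusted p = 0.0528), and Emcn, a surface sialomucin gene (-0.18, adjusted p = 0.0878), beside 0.31 for Ramp2, the highest of the 12. The mean over 12 pan-endothelial markers was 0.08 ± 0.09 (SD, n = 4) at ZT15 and -0.07 ± 0.03 at ZT23. Of the 12, 4 had a 24-h pattern (Ramp2, Mmrn2, Eng and Robo4), against 7.61% of all genes. Pecam1 (adjusted p = 0.302), Cdh5 (adjusted p = 0.868) and Vwf (adjusted p = 0.554), which define endothelium, were not called in limma's 24-h test. The mean over 10 capillary markers was -0.13 ± 0.08 at ZT03 and 0.17 ± 0.03 at ZT15, and the 5 that were higher at dusk were Fabp4, Aqp1, Rgcc, Gpihbp1 and Timp4. Aqp1, the water channel gene (1.74-fold, ZT 13.8), and Gpihbp1, which anchors lipoprotein lipase to capillaries (1.39-fold, ZT 11.9), peaked close to Flt1. After the pan-endothelial mean was subtracted from every gene on each array, Kdr changed 1.67-fold (adjusted p = 2.32e-08), Flt1 1.31-fold (adjusted p = 3.66e-05), Angpt1 1.54-fold, Vegfa 1.32-fold and Nrp1 1.27-fold in limma's 24-h test, and all 5 stayed below the threshold. Their peaks then lay at ZT 2.08, ZT 14.0, ZT 2.03, ZT 0.158 and ZT 4.10. The subtracted mean was itself higher at dusk, so the subtraction lowers the dusk difference of every gene by the same amount. Differences of genes low at dusk grow by it, and that of Flt1 shrinks. These calls therefore cannot decide what part endothelial content has, and that part was not tested. Among members that were not called, the same subtraction brought the amplitude of Tie1 to 0.065 and its dusk difference to 0.10, and the amplitude of Vegfb to 0.051.

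Markers of other cell types are given beside these values. Limma's 24-h test called 7.61% of all genes. It called 0 of 10 measured pericyte and smooth muscle markers and 0 of 6 atrial markers. It called 1 of 8 arterial (Hey1) and 1 of 8 venous and endocardial markers (Vcam1). In lists this short, counts of 0 or 1 lie near the share over all genes. Called as well were 6 of 8 macrophage, 3 of 8 fibroblast, 3 of 5 lymphatic and 3 of 7 platelet markers. The platelet mean was between -0.12 and -0.10 at the 3 light times and between 0.31 and 0.38 at the 3 dark times, with single arrays from -0.04 to 0.95 at ZT15. Platelets are known to carry VEGF-A and angiopoietin-1, and their part in the values of Vegfa and Angpt1 was not tested. Of 10 ventricular cardiomyocyte markers 2 were called, Ryr2 and Mybpc3, both with light-phase peaks, and their part was not tested either.

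**Figure D4:**
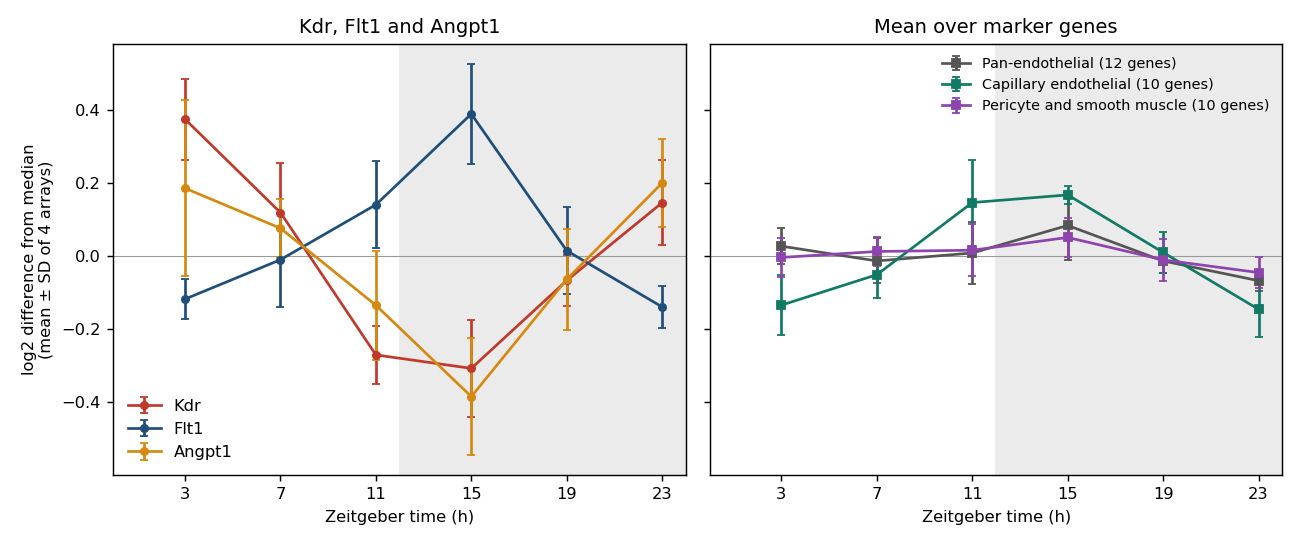
Mean and SD over 4 arrays of Kdr, Flt1 and Angpt1 (left) and of the mean over pan-endothelial, capillary and pericyte and smooth muscle marker genes (right) against zeitgeber time in hours, as log2 differences from the median. The capillary markers rise to 0.17 at ZT15 with Flt1, while Kdr and Angpt1 are at -0.31 and -0.38 there.

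Sampling ran over 1 cycle, and the return of a 24-h pattern on a second day was not measured. Effects of light, feeding and the clock cannot be told apart. Array medians lay between -0.00223 and 0.00731, and the spread within an array (SD over its probe sets) between 0.103 and 0.171. The number of arrays limits the precision, and whether replicates came from separate mice is stated in the labels only by the words biological replicates, so p-values measure the spread between these samples.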

How the data were processed

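Heart RNA of 24 samples was labelled as biotinylated cRNA (500 ng of total RNA) and hybridised to Affymetrix mouse gene arrays, per the labels' protocols. The deposited table holds log2 values by reading: the log base is not stated and was taken as 2, and higher was taken as more RNA. The sources used here do not give the summarisation, normalization, software or build. Each probe set has a median of 0 over the arrays (within 5e-07), so dim genes could not be filtered.

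Probe sets naming 1 gene (23521 of 34351) were averaged per gene, giving 22180 genes. Tests were fitted with limma 3.58.1 in R 4.3.3 on all genes and 24 arrays, with Benjamini-Hochberg adjustment and a threshold of 0.05: a 24-h cosine and sine, an F test over 6 times, and contrasts of times (18 residual degrees of freedom). In simulated data with independent noise, 200 of 22180 genes were given a 24-h pattern. The 24-h test recovered 36% of changed genes at an amplitude of 0.1, 84% at 0.2 and 100% at 0.4. Of its 170 calls, 10 were unchanged genes. In the deposited data 1688 genes were called, so the adjustment differs and these shares are not the power for the members. SEs of peak times are delta-method values.

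The members and lists were chosen with earlier results of these data known. The 10 members are described in full. From each pathway list the text names up to 6 called genes of smallest p, or the smallest p where none was called; from the marker lists it gives chosen examples. Pecam1, Cdh5, Vwf, Angpt2, Pgf, Svep1, Sema3d, Dll4 and Esm1 were added for their roles or by their p. Replicate numbers did not pair the arrays (5 of 60 same-numbered pairs had correlated deviations over 0.1). Red cell markers were not measured. Alternatives tried were the probe set of highest SD, 2 scalings, array weights, robust variances, protein-coding genes alone, a replicate block, arrays left out, single probe sets, and, added after seeing the data, subtraction of the pan-endothelial mean.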

Additional observations from a re-analysis of the deposited data

Results flagged for a closer look

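Among 60 sets of 4 arrays (10 genes at 6 times), 4 held 1 array far from the other 3, by Dixon's test at the 95% level. Chance gives about 1 in 20 such sets. Tie1 read 0.463 on ZT15 replicate 1 and between -0.00433 and 0.0452 on the other 3. The same array held the highest Nrp1 value of its time, -0.0135, against -0.0884 at most on the others. Nrp2 read 0.0704 on ZT19 replicate 4 and at most -0.0741 on the others. Flt4 read -0.123 on ZT19 replicate 2 and at least -0.0309 on the others. ZT15 replicate 1 was the array of lowest quality weight (0.498), and without it the 24-h calls of the 5 members were unchanged.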

How the results depend on the processing

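The 24-h calls of Kdr, Flt1, Angpt1, Vegfa and Nrp1 and the dusk calls of Kdr, Flt1, Angpt1 and Vegfa held in every alternative run. With single arrays left out, 24-h calls ranged from 1445 to 1829 genes and from 5 to 6 members, calls of any difference from 895 to 1134 genes and from 4 to 6 members, dusk calls from 697 to 884 genes with 4 members, night calls from 765 to 1243 genes and from 1 to 3 members, and genes with a step from 199 to 345 with 2 to 4 member steps. Night calls fell from 973 to 630 genes with the pan-endothelial mean subtracted. Night called 2 members instead of 1 after quantile normalization, subtraction of array medians, array weights, without the 3 arrays of lowest weight and in protein-coding genes alone; Kdr was the second in 2 of these (adjusted p = 0.0488 and 0.0449) and Tek in the other 3 (adjusted p = 0.0338, 0.0207 and 0.0109). Without those 3 arrays (ZT15 replicate 1, ZT23 replicate 4 and ZT07 replicate 4) 2 member steps instead of 4 passed, Kdr from ZT07 to ZT11 (adjusted p = 0.0651) and Flt1 from ZT15 to ZT19 (adjusted p = 0.0864) being lost, and Nrp1 was lost from the F test (adjusted p = 0.0569) while Tek was gained (adjusted p = 0.0429). With the pan-endothelial mean subtracted, Nrp1 was gained at dusk (-0.20, adjusted p = 0.0178). That subtraction moves the dusk difference of every gene by the same amount. The median dusk difference over all genes was 0.00198 in the deposited values and -0.0643 after it. The gain is thus no separate finding about Nrp1. The causes of the other changes were not tested.

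Replicate numbers name different samples and did not deviate together. With them as a replicate block, Nrp1 missed the F test over times (adjusted p = 0.0677) and no other member's call changed. Directions turned only in results that were not called: Flt4 at night became -0.00370 with array weights and -0.00860 without the 3 arrays, and Vegfb at dusk became 0.00239 without them. With single arrays left out, Vegfb at night ranged from -0.0095 to 0.0581 and at dusk from -0.0412 to 0.0247, Nrp2 at dusk from -0.0483 to 0.0217, and the Vegfb amplitude from 0.0096 to 0.0396. The deposited values keep no signal over background, so what dimness limits is unknown.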
